A study of Mus musculus with 8 samples.

Results

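The collagen genes were the 42 autosomal genes with a RefSeq mRNA whose symbol is Col, a number, a and a number, out of 20021 autosomal genes with a RefSeq mRNA. They were divided by the kind of assembly their chains form, into 11 fibrillar genes, 4 basement membrane genes (type IV) and 27 genes of other types. Chromatin accessibility around them was taken from ATAC-seq of mouse brown adipose tissue (BAT), in which the Tn5 transposase cuts DNA that is not covered by nucleosomes. The libraries came from 2 WT and 2 Dot1L-BKO mice at 12 weeks of age, kept on chow and then at 4°C for 4 hr, with nuclei of each mouse processed separately. WT mice were Dot1l f/f littermates, and Dot1L-BKO mice carried the floxed allele of Dot1l, the H3K79 methyltransferase, together with Ucp1-Cre. Since the Ucp1 promoter drives the Cre, Dot1l is removed from Ucp1+ cells, while fibroblasts, endothelial cells and the other stromal cells of the tissue keep it. No sorting of the nuclei is described, so that nuclei of these other cell types may be part of each library. The RNA-seq part of the study was not used here.

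The measurement was a single list of 32173 peak summits, of which 31729 lay on autosomes. All 4 libraries went into it, under a name that sets WT against Dot1L-BKO, but the role of Dot1L-BKO in peak calling (treatment or control) is not given in the sources used here. If it was the control, a score would measure an excess of WT over Dot1L-BKO reads and not openness as such, and a region open in both genotypes could lack a summit. Each summit is the highest point of a peak and carries a score, the −log10 of the q-value from MACS2, which ran from 1.31 to 13426 with a median of 5.0. The list has no value per library. Read depth and replicate error are therefore unknown, WT and Dot1L-BKO could not be compared, and what follows describes which collagen genes have summits and which do not. In tissue of mixed cell types, fewer cells of a type and less open chromatin per cell cannot be told apart.

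Collagens are triple helices of α chains that give connective tissue its strength. Fibrillar collagens such as types I, III and V form the banded fibres that fibroblasts lay down between cells. Type IV chains instead form a flexible network in basement membranes, the thin sheets that wrap each adipocyte and underlie the endothelium, together with laminins, nidogens and perlecan. The remaining types attach to fibrils (FACIT collagens), form beaded microfilaments (type VI), anchor epithelia (type VII), span the plasma membrane, or, as the multiplexins XV and XVIII, link basement membranes to the surrounding matrix.

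Few collagen promoters held a summit. A promoter summit, defined as a summit within 1 kb on either side of a transcription start site (TSS), was found at 8 of 42 collagen genes (19%, 95% Wilson interval for counting error 9.98% to 33.3%), beside 46.8% of all autosomal genes. These were Col4a1, Col4a2, Col1a1, Col5a3, Col11a2, Col27a1, Col7a1 and Col16a1. By class they were 4 of 11 fibrillar genes (36.4%, interval 15.2% to 64.6%), 2 of 4 type IV genes (50%, interval 15.0% to 85.0%) and 2 of 27 other genes (7.41%, interval 2.06% to 23.4%). No test was made between the classes, and the intervals of fibrillar and other types overlap. With a score of at least 5, the count was 0 of 11 fibrillar, 2 of 4 type IV and 0 of 27 other genes, beside 37.5% of all autosomal genes, so that the fibrillar and other promoter summits all scored under 5.

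The summits at collagen promoters also had low scores. The 8 distinct summits ran from 1.71 to 9.21 with a median of 3.53, whereas the 10271 distinct promoter summits of all autosomal genes had a median of 8.65. None of the 42 genes had a promoter summit with a score of at least 10, beside 24.5% of all autosomal genes. From a TSS to its nearest summit the median distance was 33324.5 bp for collagen genes and 3039 bp for all genes. By class this distance was 27841 bp for fibrillar, 69039 bp for type IV and 38808 bp for other types, and the type IV median joins a pair with a summit at the TSS and a pair with none for over 100 kb.

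**Figure D1:**
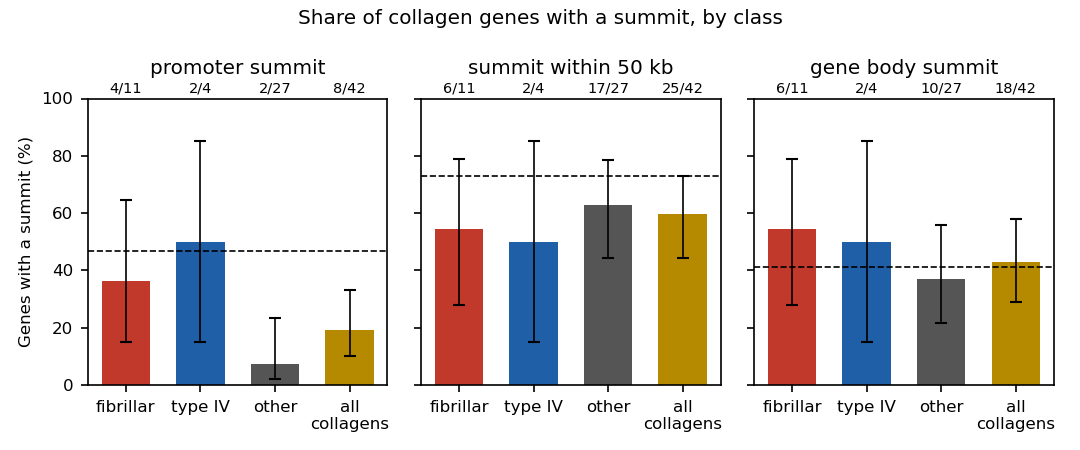
Share of genes (%) with a promoter summit, with a summit within 50 kb of a TSS and with a summit in the gene body, for 11 fibrillar, 4 type IV, 27 other and all 42 collagen genes. Bars give the share with the count above, error bars the 95% Wilson interval, and dashed lines the share of all 20021 autosomal genes; the other types stand at 2 of 27 for promoters, against a line at 46.8%.

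Markers of the cell types that BAT can hold were placed in the same way. All 7 brown adipocyte genes had a promoter summit, with a median of 23.1 for the highest score per gene. They included Ucp1, which uncouples respiration (33.7), Cidea, a lipid droplet protein (61.5), and Fabp4, a fatty acid carrier (35.0). Of 7 fibroblast and progenitor genes, only Pdgfra, a growth factor receptor of mesenchymal cells, had a promoter summit (4.16), and Dcn, Lum, Ly6a, Pi16, Dpp4 and Cd34 had none. Mural, endothelial and macrophage markers each had 1 of 4, at Cspg4 (2.53), Cdh5 (2.59) and Cd68 (2.15), and muscle markers had 0 of 4. The part of cell type makeup in the low number of collagen promoter summits was not tested.

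Among fibrillar genes, summits were found at the gene of 1 chain of type I collagen and not at the other. Col1a1, the α1 chain of type I (chr11:94936224-94953042, mm10, + strand), had 1 summit in intron 1, 745 bp downstream of the TSS, with a score of 3.75. Further summits lay 22419 bp upstream (14.0), 21955 bp downstream (6.02) and 43424 bp downstream (2.92). Col1a2, the α2 chain (chr6:4505618-4541543), had no summit within 50 kb or in its body, and its nearest summit was 241369 bp away. Col3a1, the chain of type III (chr1:45311538-45349706), likewise had none, with the nearest at 105933 bp on its upstream side. Col5a2, which nucleates fibrils with Col5a1, had none nearer than 84542 bp. Col1a2, Col3a1 and Col5a2 thus had no summit within 50 kb or in the body, although fibroblasts are known to use all of them.

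The 150 bases before the TSS of Col1a2 (chr6:4505468-4505617, + strand) and of Col3a1 (chr1:45311388-45311537, + strand) are printed because these are the promoters of major fibril chains at which no summit was listed. They come from RefSeq (mm10), 5′ to 3′, and capitals mark the letters of a CCAAT box in Col1a2 and of a TATA box (TATAAA) in Col3a1. The letters were marked at any distance from the TSS, and their use as promoter elements was not tested.
Col1a2 upstream: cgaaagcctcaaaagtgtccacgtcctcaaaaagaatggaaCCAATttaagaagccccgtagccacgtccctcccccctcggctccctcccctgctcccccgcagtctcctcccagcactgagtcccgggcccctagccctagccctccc
Col3a1 upstream: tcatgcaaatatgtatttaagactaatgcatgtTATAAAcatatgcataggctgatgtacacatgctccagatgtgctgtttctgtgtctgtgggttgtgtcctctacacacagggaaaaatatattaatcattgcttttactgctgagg

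The minor fibrillar genes differed widely. Col27a1, a fibrillar gene known from cartilage (chr4:63215412-63334991, + strand), had 9 body summits, some of them beyond 50 kb from the TSS. Counted separately, it had 7 summits within 50 kb of the TSS, some upstream and some in the body. Its promoter summit lay 790 bp downstream of the TSS in intron 1 (3.75). Upstream it had summits at 15781 bp (35.9) and 11342 bp (16.7), neither within 1 kb of the TSS of another gene, and in intron 2, at 6282 bp, a further one (16.0). The remaining body summits scored 2.53 to 5.06. Col5a3, the α3 chain of type V (chr9:20770057-20815067, − strand), had 3 body summits, at 238 bp (2.15) and 2120 bp (6.02) in intron 1 and at 10598 bp in intron 8 (4.16). Its other summit within 50 kb lay past the gene, at 45321 bp (3.32). Col11a2, a chain of type XI (chr17:34039138-34066684, + strand), had a promoter summit in exon 1 at 415 bp (3.32) and a second body summit in exon 7 (4.04). Just upstream it had summits at 1251 bp (2.53), 2190 bp (6.02) and 5727 bp (6.02), and 5 more upstream, at 8820 to 47187 bp and away from promoters of other genes, scored 1.54 to 4.47.

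Col5a1, the α1 chain of type V (chr2:27886425-28039510, + strand), had no promoter summit, and its only summit within 50 kb lay 27841 bp upstream (4.16). Its single body summit, in intron 4 at 50420 bp from the TSS, had the highest score of any collagen body summit (37.6). Col2a1, the cartilage chain of type II, had a weak summit in intron 1 at 3081 bp (1.54), and its other summit within 50 kb (8.12) lay at the promoter of Tmem106c. Col11a1 and Col24a1, like Col1a2, Col3a1 and Col5a2, had no summit within 50 kb or in the body. In all, 5 of 11 fibrillar genes were without a summit by both measures. Within 50 kb alone, 6 of 11 had one (54.5%, interval 28.0% to 78.7%), beside 73.0% of all autosomal genes. The nearest summit was 248228 bp away at Col11a1 and 173870 bp away at Col24a1.

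The strongest summits of Col5a1 and Col27a1 are printed as windows with 50 bases on each side of the summit (mm10, + strand), because at both genes they scored far above the promoter, which had a weak summit or none. The windows are chr2:27936795-27936895 in intron 4 of Col5a1, and chr4:63199581-63199681 and chr4:63204020-63204120 upstream of Col27a1. Capitals mark a GC box (GGGCGG, here also read on the other strand as CCGCCC) and a CCAAT box (read on the other strand as ATTGG).
Col5a1, intron 4: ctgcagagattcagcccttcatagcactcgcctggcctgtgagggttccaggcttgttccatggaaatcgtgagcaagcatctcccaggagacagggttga
Col27a1, upstream 15781 bp: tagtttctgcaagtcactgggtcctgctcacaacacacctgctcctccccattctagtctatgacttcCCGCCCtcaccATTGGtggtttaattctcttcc
Col27a1, upstream 11342 bp: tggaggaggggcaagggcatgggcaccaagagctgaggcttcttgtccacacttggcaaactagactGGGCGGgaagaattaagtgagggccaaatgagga

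The 4 type IV genes formed a pair with summits and a pair without. Type IV genes are arranged head to head, with the members of a pair transcribed away from each other from a shared promoter. Col4a1 (chr8:11198423-11312826, − strand) and Col4a2 (chr8:11312805-11449287, + strand), the chains of nearly every basement membrane, have RefSeq TSSs 21 bp apart. They shared 2 promoter summits. The stronger (9.21) lay 59 bp upstream of the Col4a1 TSS and 80 bp inside exon 1 of Col4a2, and the other (6.53) lay 794 bp upstream of Col4a1 and 815 bp downstream of the Col4a2 TSS. These were the strongest summits at any collagen promoter. Col4a3 and Col4a4, the chains of the kidney glomerular membrane, have TSSs 72 bp apart on chromosome 1. Neither had a summit within 50 kb or in its body of 135139 bp and 136127 bp, and the nearest summit lay 137998 bp from the Col4a3 TSS, past the 3′ end of that gene. The remaining pair, Col4a5 and Col4a6, lies on the X chromosome and likewise had no summit within 50 kb or in the body.

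The 71 bases between the TSSs of Col4a4 and Col4a3 (RefSeq, mm10, chr1:82586850-82586920, − strand, 5′ to 3′ towards Col4a4) are printed as the shared promoter at which no summit was listed. These 71 bases held none of the motifs searched.
Col4a4 upstream: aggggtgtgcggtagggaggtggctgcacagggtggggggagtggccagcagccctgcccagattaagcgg

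Among the 27 other collagens, a promoter summit was found at Col7a1, the anchoring fibril chain (1.71, at 816 bp in exon 3), and at Col16a1, a FACIT chain (1.83, at 2 bp in exon 1). Col7a1 also had a body summit in intron 97 (2.42), a summit 16595 bp upstream at the promoter of Uqcrc1 (4.04), and 4 past its end, of which those not at a promoter scored 4.16, 4.16 and 2.92. Both promoter scores lie below the lower quartile of the list (3.05). The 6 type VI genes, Col6a1 to Col6a6, form the beaded filaments that surround fat cells. None of the 6 had a promoter summit, beside 46.8% of all autosomal genes, or a body summit, beside 41.2%. For each measure the interval of 0 of 6 was 0% to 39.0%, and 6 genes are few. Col6a2 alone of these had summits within 50 kb, at 18902 bp (11.5), 25312 bp (28.5) and 41274 bp (4.61) upstream. Col6a1, whose TSS is on the same chromosome, was just outside with its nearest summit at 51261 bp, and Col6a3 at 52985 bp. No promoter summit was found at the 8 remaining FACIT genes, the 3 network genes Col8a1, Col8a2 and Col10a1, the 4 transmembrane genes Col13a1, Col17a1, Col23a1 and Col25a1, the multiplexins Col15a1 and Col18a1, or Col26a1 and Col28a1. These FACIT genes were Col9a1, Col9a2, Col9a3, Col12a1, Col14a1, Col19a1, Col20a1 and Col22a1.

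Several of these genes had strong summits elsewhere. Col18a1, the source of endostatin (chr10:77052179-77166530, − strand), had 3 body summits, all in intron 2, with scores of 9.78, 31.2 and 4.61 at 2992, 14443 and 17119 bp upstream of its nearer TSS. Its partner multiplexin Col15a1 had a summit in intron 28 (16.0) and one in intron 5 (3.2). Col12a1, a FACIT chain, had one in intron 58 (27.7) and one in intron 2 (5.07). Upstream of Col14a1, another FACIT chain, the only summit lay at 27068 bp (7.58). A body summit with a score of at least 10 was found in 7 of 42 collagen genes (16.7%), close to the 14.3% of all autosomal genes. They were Col4a1, Col4a2, Col5a1, Col12a1, Col15a1, Col18a1 and Col27a1.

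The strongest summit windows of Col18a1 (chr10:77128098-77128198, intron 2) and Col6a2 (chr10:76648892-76648992, upstream) are printed with 50 bases on each side of the summit (mm10, + strand), because they are the highest scores among the other collagens that lay neither at the TSS of another gene nor in mitochondrial sequence. Neither held one of the motifs searched.
Col18a1, intron 2: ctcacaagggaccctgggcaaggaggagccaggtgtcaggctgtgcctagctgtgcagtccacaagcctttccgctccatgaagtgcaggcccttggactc
Col6a2, upstream 25312 bp: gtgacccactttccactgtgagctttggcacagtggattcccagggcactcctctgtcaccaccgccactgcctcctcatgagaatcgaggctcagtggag

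**Figure D2:**
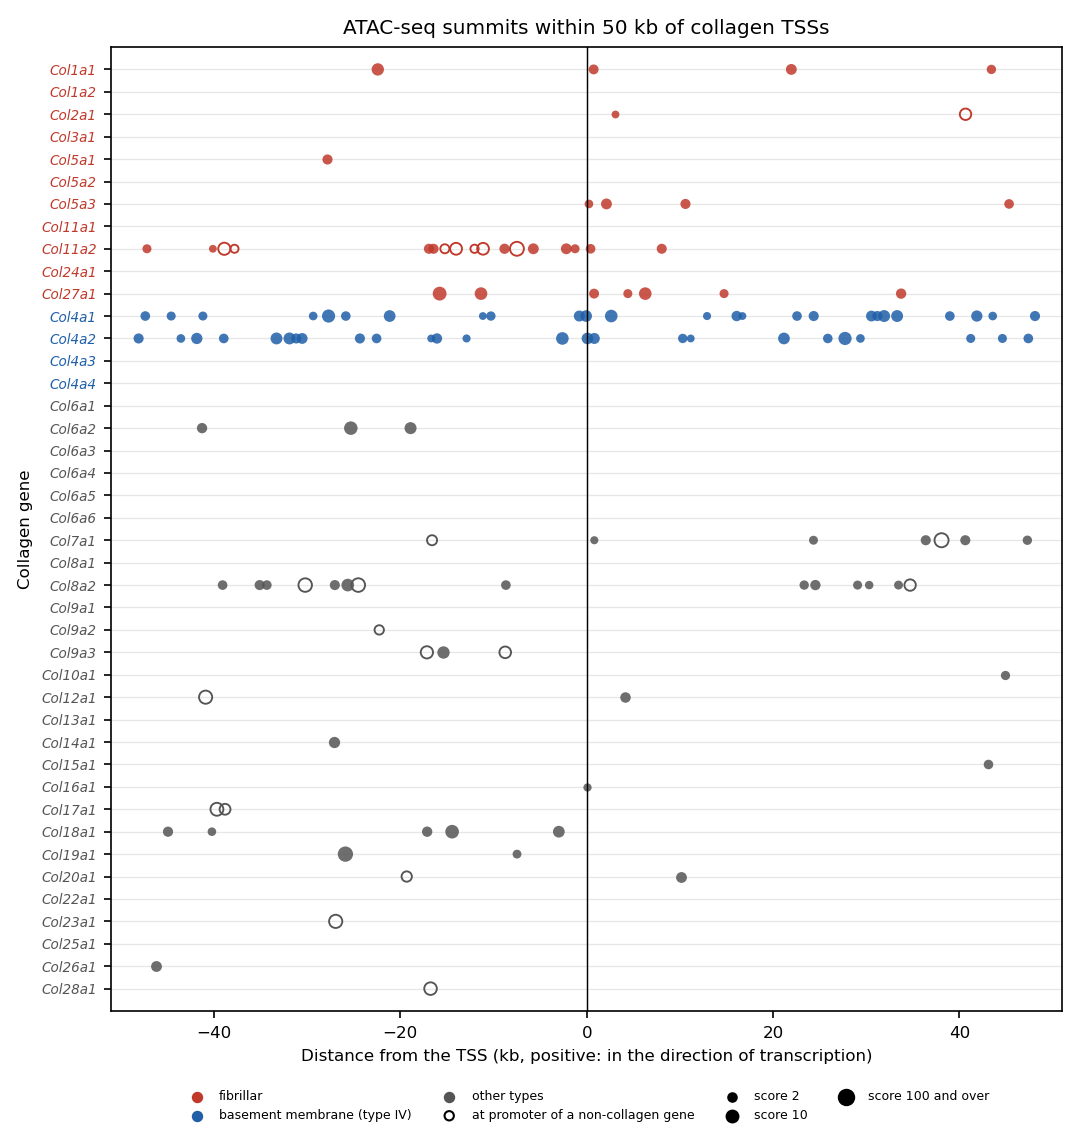
Summits within 50 kb of the nearest TSS of each of the 42 collagen genes (x axis: distance in kb, positive in the direction of transcription; y axis: gene, coloured by class). Point size grows with the log of the score and open points lie at the promoter of a non-collagen gene; 17 genes have no point, and the points of Col4a1 and Col4a2 are mirror images of the same 25 summits.

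Every promoter summit outside the Col4a1 and Col4a2 pair lay downstream of the TSS, 6 of 6, and 5 of these were over 100 bp downstream. Only the summit at Col16a1, at 2 bp, was close to the TSS itself. With a window from 1 kb upstream to 100 bp downstream, 3 collagen genes had a promoter summit, beside 36.4% of all genes, and with 500 bp on each side 5 had one, beside 42.9%.

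CpG content differs between the collagen promoters and those of all genes, and was therefore compared within ranges. A promoter was called CpG-rich when the 500 bp on each side of the TSS had an observed over expected CpG ratio of at least 0.6 and a GC content of at least 50%. This was met by 12 of 42 collagen genes (28.6%) and by 51.2% of all genes. The median CpG ratio was 0.457 for collagen genes and 0.625 for all genes, while the median GC content was 57.5% and 56.4%. Among CpG-rich promoters, 3 of 12 collagen genes (25%) had a summit, beside 74.0% of all genes with such promoters. Among the remaining promoters, 5 of 30 collagen genes (16.7%) had one, beside 18.3%. The collagen share was below that of all genes among CpG-rich promoters and close to it among the rest, and the difference was not tested.

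The 3 CpG-rich promoters with a summit were those of Col4a1, Col4a2 and Col27a1. The 9 without were Col2a1, Col5a1, Col8a2, Col12a1, Col13a1, Col15a1, Col23a1, Col25a1 and Col26a1. Col23a1, a transmembrane collagen, had the highest CpG ratio of all collagen promoters (0.874), followed by Col5a1 (0.821), and neither had a promoter summit. Conversely, Col1a1 had a ratio of 0.300 and a summit 745 bp downstream.

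**Figure D3:**
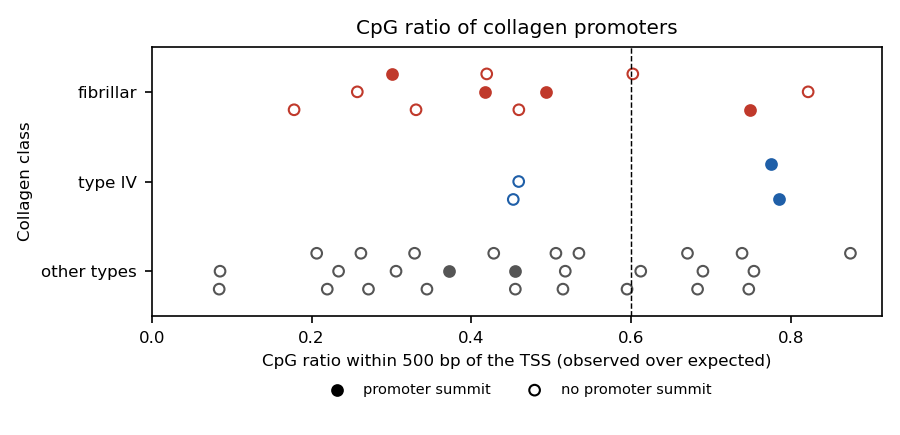
Observed over expected CpG ratio within 500 bp of the TSS (x axis) of each collagen gene, by class (y axis, points spread for legibility). Filled points are genes with a promoter summit and the dashed line is at 0.6; filled points stand on both sides of it, and the rightmost points of the fibrillar and other types, Col5a1 and Col23a1, are open.

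In gene bodies, the summits were concentrated in Col4a1 and Col4a2. A body summit was found in 18 of 42 collagen genes (42.9%, interval 29.1% to 57.8%), beside 41.2% of all autosomal genes. The 18 genes held 107 distinct summits, and 72 of them (67.3%) lay in Col4a1 (38) and Col4a2 (34), with 35 in the other 16 genes. By class the bodies held 17 summits in fibrillar, 72 in type IV and 18 in other genes, that is 1.63, 13.8 and 0.559 per 100 kb. Over all 42 genes there were 2.24 per 100 kb, and over all autosomal genes 1.98. Without Col4a1 and Col4a2 the collagen genes had 0.772 per 100 kb. With a score of at least 5 the order turned, to 0.690 per 100 kb in collagen genes and 0.903 in all genes, and 10 of 42 collagen genes (23.8%) had a body summit, beside 27.6% of all genes.

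The 72 summits were spread over the whole of the Col4a1 and Col4a2 locus of 250865 bp, at 28.7 per 100 kb. Neighbouring summits were a median of 2186 bp apart (365 to 14625 bp). In Col4a1, which has 52 exons, all 38 lay in introns, 13 of them in intron 1 and 8 in intron 2. In Col4a2, with 48 exons, 31 lay in introns, of which 7 in intron 3 and 11 in intron 4, and 3 lay in exons 1, 45 and 47. Nearly all were far from a start site, since 37 in Col4a1 and 32 in Col4a2 lay over 5 kb from any TSS. Most were weak. The median score was 3.53 (1.54 to 26.1), 22 reached 5, and 6 (8.33%) reached 10, while 23.6% of all autosomal summits reached 10.

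The strongest lay in intron 4 of Col4a2 (26.1, at 69869 bp from its TSS), intron 3 of Col4a2 (23.1, at 27720 bp), intron 2 of Col4a1 (17.8, at 62995 bp) and intron 1 of Col4a1 (16.2). Both promoter summits scored below these intronic ones. Past the locus, the 100 kb after the 3′ end of Col4a1 held 6 summits and the 100 kb after the 3′ end of Col4a2 held 22.

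The windows with 50 bases on each side of the strongest intronic summits (mm10, + strand) are printed as the strongest of the many summits that run along this locus. They are chr8:11382624-11382724 and chr8:11340475-11340575 in introns 4 and 3 of Col4a2 and chr8:11249781-11249881 in intron 2 of Col4a1. Capitals mark an AP-1 motif (TGANTCA) and a nuclear receptor element (AGGTCA), both in the window of intron 3, and the other windows held none of the motifs searched.
Col4a2, intron 4: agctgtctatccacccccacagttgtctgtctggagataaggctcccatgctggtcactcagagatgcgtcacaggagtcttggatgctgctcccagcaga
Col4a2, intron 3: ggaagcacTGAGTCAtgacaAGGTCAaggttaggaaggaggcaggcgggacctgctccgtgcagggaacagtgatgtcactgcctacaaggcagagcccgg
Col4a1, intron 2: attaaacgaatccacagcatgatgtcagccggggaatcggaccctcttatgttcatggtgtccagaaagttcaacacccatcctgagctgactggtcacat

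**Figure D4:**
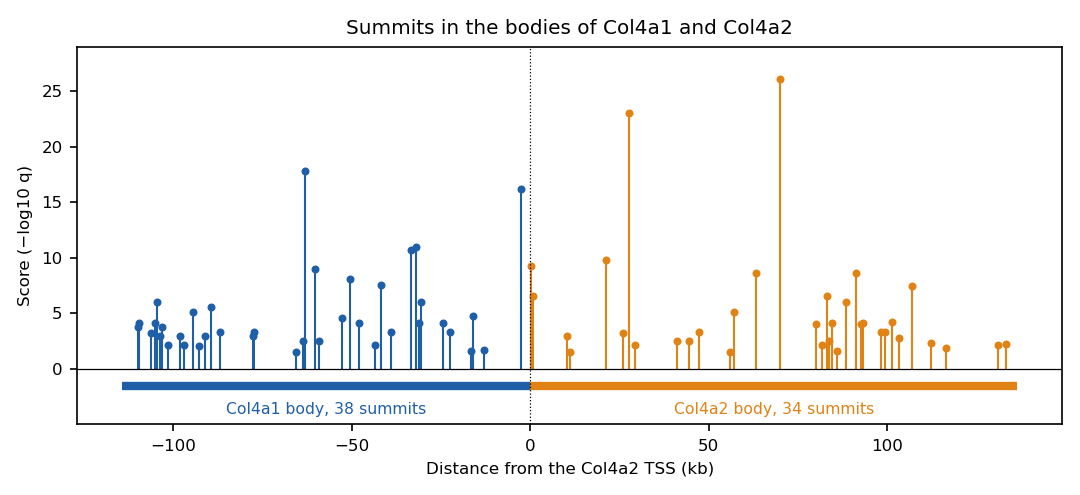
Score (−log10 q) of the 72 summits in the bodies of Col4a1 (blue) and Col4a2 (orange), by distance from the Col4a2 TSS in kb, with bars below the axis for the gene bodies. Summits run along both bodies, and the highest, at 26.1 and 23.1, lie inside Col4a2 and not at the shared promoter at 0 kb.

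Since a long gene has more room for summits, the bodies were compared with those of other long genes, of up to 2270506 bp and not matched more closely. Of the 2207 autosomal genes of at least 100 kb, Col4a1 had the most summits per 100 kb (33.2, rank 1) and Col4a2 was at rank 8 (24.9). Col27a1 was at rank 55 (7.53), and the median of these genes was 0.404. At rank 4 stood Hspg2, the gene of the basement membrane proteoglycan perlecan, with 30 summits in 101828 bp (29.5 per 100 kb). By number alone, 7 autosomal genes had more body summits than Col4a1 and 9 more than Col4a2. Among all 20021 autosomal genes, short ones included, the ranks per 100 kb were 1102 for Col4a1 and 1538 for Col4a2. At the other end, Col25a1 (419039 bp), Col19a1 (329755 bp) and Col24a1 (259540 bp) had none in their bodies.

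Summits within 1 kb of any TSS were then left out, so that only the inner body counted. Over all lengths 16 of 42 collagen genes had such a summit, beside 25.4% of all genes, so that shares that were nearly equal with all body summits lay further apart. Among genes under 50 kb, 6 of 15 collagen genes had such a summit, beside 20.6% of all genes. From 50 to 100 kb it was 0 of 3, beside 33.5%, from 100 to 200 kb 9 of 18, beside 43.2%, and from 200 kb 1 of 6, beside 61.1%. Per 100 kb, the 18 collagen genes of 100 to 200 kb had 3.69 such summits, beside 1.09 for all genes of that length, and without Col4a1 and Col4a2 they had 0.880. In every other range the collagen genes had fewer per 100 kb than all genes, 1.90 beside 2.97 under 50 kb, 0 beside 1.43 from 50 to 100 kb and 0.114 beside 0.451 from 200 kb. The numbers of collagen genes are small in each range, and no order was read from them.

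**Figure D5:**
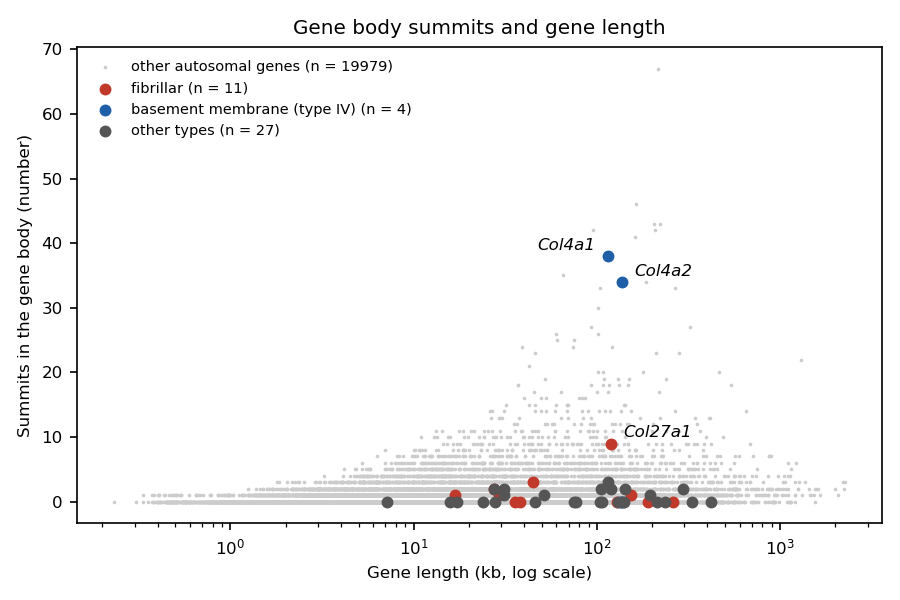
Number of summits in the gene body (y axis) against gene length in kb (x axis, log scale) for collagen genes by class and for the other autosomal genes (grey). Col4a1 and Col4a2, at 38 and 34, stand above the collagen genes of their length, Col27a1 follows with 9, and the rest hold at most 3.

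Within 50 kb of a TSS, 25 of 42 collagen genes (59.5%, interval 44.5% to 73.0%) had a summit, beside 73.0% of all autosomal genes. These were 6 of 11 fibrillar (54.5%), 2 of 4 type IV and 17 of 27 other genes (63.0%). The window also takes in neighbouring genes, and collagen genes had fewer of these, a median of 0.5 other genes with a TSS within 50 kb compared with 2 for all genes. Of the 108 distinct summits in the windows, with a median score of 4.16, 22 (20.4%) lay at the promoter of a gene that is not a collagen. Without summits at promoters of other genes, 21 collagen genes still had one, beside 63.8% of all genes.

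The windows with most summits were those of Col4a1 and Col4a2, with 25 shared, Col11a2 with 17 and Col8a2 with 14. Col11a2 lies in the major histocompatibility region, and 7 of its summits were at promoters of H2-K1, Ring1, H2-Ke6, and Rxrb with Slc39a7, the last with the highest score (37.6). Near Col8a2, a network collagen, the highest summits were at the promoters of Trappc3 (30.1) and Map7d1 (28.5), followed by one at no promoter, 25640 bp upstream of Col8a2 (16.7). Near Col7a1 the highest was at Pfkfb4 (41.0), a regulator of glycolysis, near Col12a1 at Cox7a2 (22.7), a subunit of cytochrome c oxidase, and near Col23a1 at a promoter shared by Clk4 and BC049762 (23.7). Col9a2, Col17a1, Col23a1 and Col28a1 had no summits within 50 kb other than those at promoters of other genes.

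The Col19a1 window held a value of another order. The summit 25892 bp upstream of Col19a1, a FACIT gene, had a score of 13426, the highest in the list. The 1 kb around it matched the mitochondrial genome over 1001 bp with 99.9% identity, and it was the only one of 167 distinct collagen summits with a match. Reads from mitochondrial DNA and from this place cannot be told apart by sequence. The other Col19a1 summit, at 7478 bp upstream, scored 2.33.

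In all, 17 collagen genes had no summit within 50 kb or in the body, 5 fibrillar, 2 type IV and 10 of other types. Within 50 kb alone, 17 of 42 collagen genes had none, beside 5404 of 20021 autosomal genes. The share of all genes with none by both measures was not computed. The 10 of other types were Col6a1, Col6a3, Col6a4, Col6a5, Col6a6, Col8a1, Col9a1, Col13a1, Col22a1 and Col25a1. They include genes known from cartilage, such as Col9a1, and genes known from fat tissue fibroblasts, such as Col6a1 and Col6a3.

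Short motifs were searched on both strands in the RefSeq promoter sequences (250 bases before to 50 after the start, mm10), which were at hand for 33 of the 42 collagen genes and 16010 autosomal genes. The GC box GGGCGG occurred in 20 of 33 collagen promoters (60.6%), beside 51.3% of all promoters. The CCAAT box occurred in 12 (36.4%), beside 42.2%, and the TATA box TATAAA in 5 (15.2%), beside 14.7%. The nuclear receptor element AGGTCA and the EBF motif CCCNNGGG occurred in 8 each (24.2%), beside 16.4% and 18.2%. The AP-1 motif TGANTCA and the CRE motif TGACGTCA occurred in 1 each (3.03%), beside 8.30% and 2.68%. A difference of a few promoters among 33 is small, and these counts describe letters and not binding.

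The same motifs were counted in windows of 100 bases on each side of summits over 1 kb from any TSS. The 70 such body summits of Col4a1 and Col4a2 had AP-1 motifs in 8 (11.4%) and nuclear receptor elements in 8 (11.4%), beside 7.75% and 17.9% of 21458 autosomal summits. The 29 of other collagen genes had them in 4 (13.8%) and 8 (27.6%). GC boxes occurred in 1 of 70 and 0 of 29, beside 8.84%. CCAAT boxes occurred in 14 (20%) and 6 (20.7%), beside 23.1%, and EBF motifs in 10 (14.3%) and 5 (17.2%), beside 15.7%. TATA boxes occurred in 6 (8.57%) and 2 (6.90%), beside 3.62%, and CRE motifs in 0 and 1 (3.45%), beside 0.569%. Median GC content was 52.2% in the Col4a1 and Col4a2 windows and 54.2% in both other sets.

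Genes that act on collagen chains were taken from fixed lists and described by the same rule, beside the 46.8% of all autosomal genes with a promoter summit. They hold 1 gene of the X chromosome, Timp1 among the degradation genes, which had no summit at its promoter or in its body. Of 20 genes for modification and folding of the chains in the endoplasmic reticulum, 11 (55.0%) had a promoter summit. The median of their highest promoter scores per gene was 11.5. The highest were P4hb, a subunit of prolyl 4-hydroxylase that is also protein disulfide isomerase (58.6), and Colgalt1, which adds galactose to hydroxylysine (54.7). P4ha1, the catalytic subunit of prolyl 4-hydroxylase, had 26.1 and P3h1, a prolyl 3-hydroxylase, 24.6. Serpinh1, the collagen chaperone, had no promoter summit but 3 body summits in 7865 bp. Crtap, the partner of P3h1, had neither. By comparison, 1 of 13 genes for processing and crosslinking (7.69%) had a promoter summit, Loxl1, a lysyl oxidase (26.1), and Lox, Bmp1 and Pcolce had none. Among 10 degradation genes it was Timp3, an inhibitor of metalloproteinases (5.07), and among 9 receptors Itga1 (14.5), Itgb1 (8.65) and Ddr1 (2.92).

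Of 15 other basement membrane proteins, 10 (66.7%) had a promoter summit. The median of the highest promoter score per gene was 5.84. The 8.65 given above is a median over distinct summits of all genes, which is an unlike measure. A body summit was found in 12 of these 15, beside 41.2% of all autosomal genes, but the list was not matched on length, and its genes run from 10669 to 635658 bp while the median of all genes was 16861 bp. Body summits were found in 12 of 20 modification and folding genes, 5 of 13 processing and crosslinking genes, 3 of 10 degradation genes and 5 of 9 receptors. The promoter scores were highest at Lamc1, the laminin γ1 chain (18.8), Nid1 and Nid2, the nidogens (7.91 and 7.58), and Sparc, a collagen-binding protein (7.58). Hspg2 had a promoter summit of 7.05 and 30 body summits, and Lama5, the laminin α5 chain, had 14 body summits in 49487 bp. Lama2, the laminin chain best known from muscle, had none in its body of 635658 bp. These lists are short, the genes were chosen with earlier results of these data known, and no test of a list was made.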

How the data were processed

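The authors prepared ATAC-seq libraries from BAT of 2 WT and 2 Dot1L-BKO mice. Reads were mapped to mm10 by BWA within Partek Flow. Peaks were then called by MACS2 (2.1.1 in the submitters' processing notes) in ATAC mode, keeping q-values under 0.05 and fold enrichments over 2. The deposited table holds, for each summit, its position and the −log10 of the q-value. Handling of Tn5 offsets, duplicates and mitochondrial reads is not given in the sources used here, and it affects which summits appear.

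Summits were placed against curated RefSeq mRNAs of the same build (GRCm38, which is mm10) on the 19 autosomes, with 1 kb and 50 kb windows around every TSS and with the span of the mRNAs as the gene body. A summit could count for several genes. Every collagen gene is named, with values for fibrillar and type IV genes, other genes with a promoter summit, the 5 genes with most body summits, pairs with TSSs within 1 kb, and the highest pathway genes. Strong summits of other members were named after their values were seen. The members and all lists were chosen with earlier results of these data known. No test was run, since the list has no values per library. Shares have 95% Wilson intervals. Placement was tested on simulated data, where 100 of 100 positions planted near a TSS were found. Mitochondrial sequence was searched for with blastn 2.17.0 in 1 kb windows centred on summits. Software was Python 3.11.15 with matplotlib 3.10.9, scipy 1.17.1, pandas 2.3.3 and numpy 2.4.6. Alternatives changed the score minimum, windows, transcripts, summit assignment and classes.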

Additional observations from a re-analysis of the deposited data

How the results depend on the processing

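Of 48 values under 16 alternatives, 34 stayed within 1.5 times the reported value. The score minimum moved most. With a score of at least 5, 2 collagen genes had a promoter summit, both type IV, with 0 fibrillar and 0 other genes, beside 37.5% of all genes, and 10 had a body summit, beside 27.6%. With a score of at least 10, 0 had a promoter summit (fibrillar 0, type IV 0, other 0), beside 24.5% of all genes, 15 had one within 50 kb, beside 49.9%, and 7 one in the body, beside 14.3%. A window of 500 bp left 5 genes with a promoter summit, and one from 1 kb upstream to 100 bp downstream left 3. Body summits per 100 kb moved to 0.772 without Col4a1 and Col4a2 and to 0.690 with a score of at least 5, both chosen after seeing the data. The latter turned the collagen rate from above that of all genes (2.24 beside 1.98) to below it (0.690 beside 0.903), and so did the former (0.772 beside 1.98). Merging summits, adding predicted transcripts, adding the X chromosome and moving the multiplexins to the basement membrane class left the counts of collagen genes with a summit as they were, and summits per gene were not recounted after merging. With bodies extended by 1 kb the count stayed at 18 while the share of all genes rose to 55.6%. No paired analysis was possible because values per library are lacking, which also kept single replicates from being left out. Depth is unknown, so that a gene without a summit may have open chromatin below the calling threshold, or, if Dot1L-BKO was the control, open chromatin in both genotypes.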
